A study of Mus musculus with 16 samples.

Results

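The collagen genes are described here in orthotopic pancreatic tumours of female C57BL/6 mice that received vehicle or ADH-503. Members were chosen by symbol alone: every gene whose symbol is Col, a number, the letter a and a number, with 1 array probe per symbol, the one with the highest mean over all arrays. The rule gave 44 collagen genes among 36637 gene names on the array, carried by 91 probes. They were split by chain type into 11 fibrillar, 8 basement membrane and 9 FACIT genes (fibril-associated collagens with interrupted triple helices) and 16 others. The samples were 6 tumours given vehicle, with no time in the labels, 5 given ADH-503 for 48 h and 5 given it for 10 days. The treatment field of the treated samples names ADH-503 while their titles read LA1, and the treatment field was followed. All 16 were labelled as the same strain, sex and tumour model, without the age of the mice, the tumour cells implanted, the vehicle or the dose. The labels do not say that the samples are separate animals, so p-values measure the spread between these samples, which may be partly technical.

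Collagens are secreted proteins built from 3 chains wound into a triple helix. The fibrillar types I, III and V form the tensile fibrils of scar and tumour stroma, and fibroblasts and stellate cells are their best known source in the pancreas. Type IV chains form the sheet of the basement membrane under epithelium and around vessels, with the multiplexins XV and XVIII attached to it. FACIT collagens sit on the surface of fibrils, and type VI forms beaded filaments near cells. Pancreatic ductal tumours are known for a dense, collagen-rich stroma. ADH-503 is known as a small-molecule agonist of the leukocyte integrin CD11b, and the series asks how tumour expression changes over time under it.

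Each value is a level on the log2 scale, the scanner's processed red signal minus the 75th percentile of that array, so 0 is the level of a bright probe and 1 unit is a 2-fold step. Levels of different genes come from different probes and are not set against each other. The 75th percentile of the signal lay between 4953 and 6736, and on each array 74.9% to 81.2% of the probes gave signal well above background. The arrays lay on 2 slides, with 1 vehicle, 4 ADH-503 48 h and 3 ADH-503 10 days arrays on slide 1 and 5, 1 and 2 on slide 2, so slide and treatment are partly confounded. An ADH-503 48 h sample and a vehicle sample carry the same identification number in their titles, while the description of that vehicle sample gives another number. Both were kept as labelled. Their arrays correlated at r = 0.950, within the range of 0.942 to 0.976 over all pairs. Of the 44 collagen genes, 39 were well above background on at least 5 arrays and were tested among 30332 genes. The 5 left out were Col10a1 and Col5a2, detected on 3 arrays each, Col4a6 on 2, Col4a3 on 1 and Col6a6 on none. Among the tested genes, 33 were detected on all 16 arrays, and the nearest to the limit were Col6a5 on 6, Col6a4 on 7 and Col4a5 on 8. Of marker lists, 12 of 12 acinar, 9 of 9 ductal and tumour epithelial and 11 of 12 fibroblast genes (not Dpt) passed the same filter. So did 7 of 8 endothelial (not Tek) and 8 of 8 macrophage genes. The filter passed 30332 of all 36637 gene names, and 8 of 8 cartilage and bone, 6 of 6 red blood cell and 5 of 5 adipocyte genes. These counts therefore cannot check the tissue label.

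No collagen gene passed the test in any comparison, and neither did any other gene. With limma and Benjamini-Hochberg adjustment over 30332 genes, 0% of genes had an adjusted p under 0.05 at 48 h, at 10 days or between the times. The smallest adjusted p over all genes was 0.99996 at 48 h, 0.754 at 10 days and 0.379 between the times. Unadjusted p under 0.05 was reached by 0 of 39 collagen genes at 48 h, against 2.56% of all genes tested (0.874% higher and 1.69% lower). It was reached by 1 collagen gene, lower, at 10 days, against 3.54% (1.76% higher and 1.78% lower). It was reached by 1, higher, between the times, against 3.46% (2.3% higher and 1.17% lower), so these counts are near or under the background. In no collagen gene did the groups fail to overlap, against 0.142%, 0.208% and 0.495% of all genes. What the arrays do show is a large spread of some chains between tumours of the same group, and chains that vary together over that spread.

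Fibrillar chains of types I and III had log2 differences below 0 at 48 h, with intervals that span both directions. At 10 days the direction depended on 1 array: without ADH-503 10 days replicate 5 the differences turned from -0.18 to 0.30 for Col1a1, from -0.06 to 0.32 for Col1a2 and from -0.17 to 0.23 for Col3a1. Col1a1, the major chain of type I collagen, lay at -0.73, -0.19, 0.49, 0.71 and 2.69 in the ADH-503 48 h tumours and at -0.78, 0.93, 1.45, 1.55 and 2.44 in the 10 day tumours. In vehicle it ran from 0.73 over a median of 1.34 to 1.92. Both treated groups spanned the whole vehicle range, with tumours below and above every vehicle tumour. Group means ± SD were 1.30 ± 0.42 in vehicle (n = 6), 0.59 ± 1.30 at 48 h (n = 5) and 1.12 ± 1.19 at 10 days (n = 5). The Col1a1 level at 48 h was 0.614 times (95% interval 0.262 to 1.44) that of vehicle. At 10 days it was 0.883 times (95% interval 0.377 to 2.07). In bulk tissue, fewer cells of a type and less RNA per cell cannot be told apart. With slide as a block in the model, the Col1a1 log2 difference was -1.06 at 48 h and -0.43 at 10 days. Within slides 1 and 2 it was -0.62 and -0.82 at 48 h and 0.40 and -0.97 at 10 days, with 1 vehicle array on slide 1 and 1 array at 48 h on slide 2.

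Col1a2, the partner chain of type I, was at -0.06, 0.35, 0.82, 1.16 and 2.44 at 48 h and at -0.28, 1.18, 1.59, 1.62 and 2.09 at 10 days. Its vehicle tumours ran from 0.51 to 1.73 with a median of 1.47. The tumours at the extremes were those at the extremes for Col1a1: the highest 48 h tumour and the lowest 10 day tumour are the same in both chains. The log2 difference from vehicle (± SE) was -0.36 ± 0.45 at 48 h and -0.06 ± 0.45 at 10 days. Col3a1, the type III chain found beside type I in soft tissue, lay at 0.36, 0.88, 1.09, 1.28 and 2.92 at 48 h and at 0.00, 1.72, 1.80, 1.97 and 2.43 at 10 days, against 1.24 to 2.23 in vehicle. At 48 h 1 tumour stood above all vehicle tumours for Col3a1 and 3 stood below all of them. Its log2 differences were -0.45 ± 0.45 and -0.17 ± 0.45, and with slide as a block -0.83 and -0.43.

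Col5a1, a type V chain that helps set fibril width, had the widest span of the 10 fibrillar genes tested, 59.7-fold. It lay at -5.28, -4.55, -3.76, -3.74 and -1.56 at 48 h and at -7.46, -5.26, -3.36, -3.19 and -2.24 at 10 days, and from -5.41 to -1.85 in vehicle. The lowest 10 day array was the only one on which it was not well above background. The log2 difference at 10 days was -0.99 ± 0.89 (limma, unadjusted p = 0.284), and -0.20 without that array, ADH-503 10 days replicate 5. Col5a3, another type V chain, had the smallest fibrillar p at 10 days, with levels of -4.74, -4.53, -4.34, -4.12 and -3.95 against a vehicle range of -5.84 to -4.07. The difference of Col5a3 was 0.54 ± 0.26 (unadjusted p = 0.0528). When the probes of the gene were averaged, the Col5a3 value at 10 days was -0.09. Col11a2, a type XI chain best known from cartilage, had the smallest fibrillar p at 48 h, at -0.30 ± 0.16 (unadjusted p = 0.0749), and between the times, at 0.33 ± 0.16 (unadjusted p = 0.0631). Col27a1, a minor fibrillar chain, was at 0.42 ± 0.36 at 48 h and Col24a1 at -0.07 ± 0.16 at 10 days. Over the 10 fibrillar genes tested, the log2 difference was below 0 in 7 at 48 h and in 6 at 10 days, and above 0 in 7 between the times. The class medians were -0.33, -0.07 and 0.28 in that order. Col2a1, the cartilage fibril chain, was at -0.36 ± 0.38 at 48 h and -0.08 ± 0.38 at 10 days, and Col11a1, the partner of Col11a2, at 0.12 ± 0.13 and 0.02 ± 0.13.

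**Figure D1:**
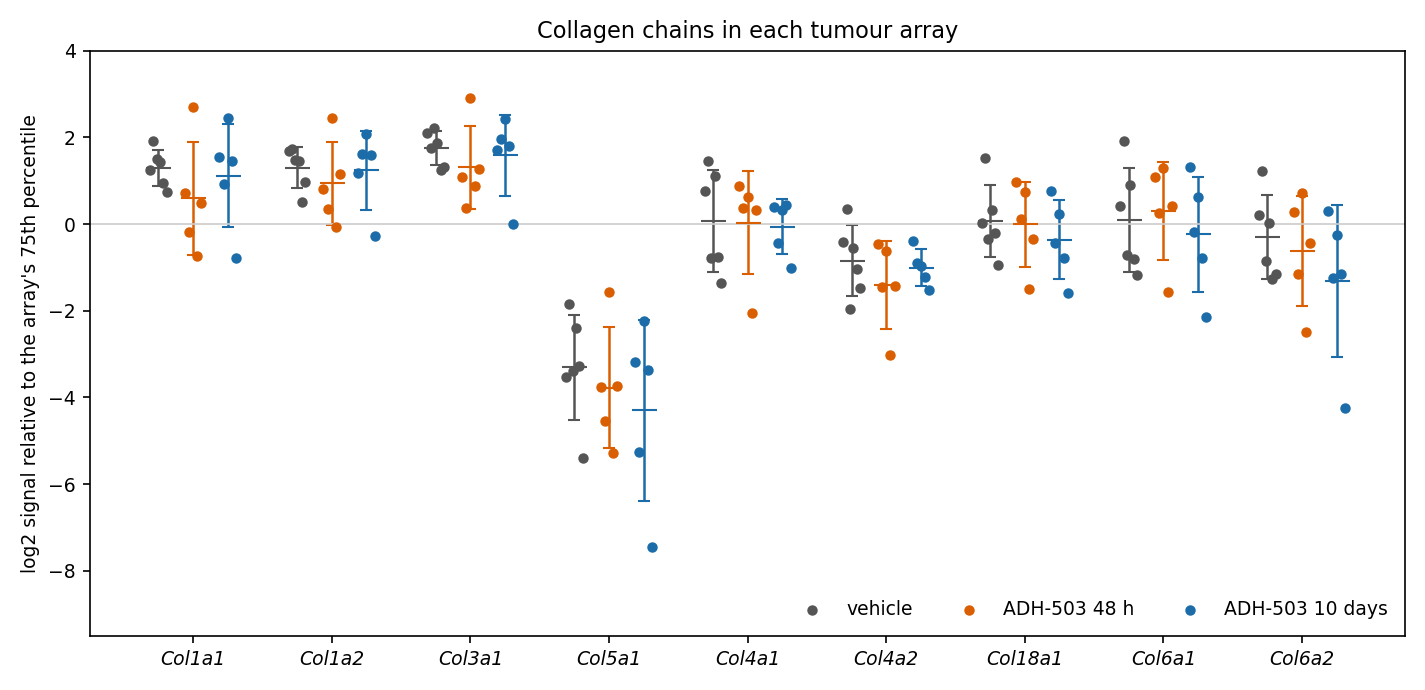
Level of 9 collagen chains in each array, as log2 signal relative to the array's 75th percentile (vertical axis), by group: points are arrays, and horizontal marks with bars are the mean and SD of 6 vehicle, 5 ADH-503 48 h and 5 ADH-503 10 days arrays. The groups overlap for each of the 9 chains, and Col1a1 runs from -0.78 to 2.69.

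Basement membrane chains ranged widely between tumours of 1 group, and no group difference passed the test. Col4a1, with Col4a2 the common chain pair of type IV collagen, was at -2.05, 0.32, 0.38, 0.63 and 0.88 at 48 h. At 10 days it was at -1.01, -0.44, 0.33, 0.40 and 0.43, and in vehicle it ran from -1.37 over a median of 0.00 to 1.44. One 48 h tumour lay far below the other 4 of its group, which were close together. The Col4a1 level at 48 h was 0.977 times (95% interval 0.407 to 2.34) that of vehicle. Col4a2 was at -3.03, -1.45, -1.43, -0.63 and -0.46 at 48 h, at -1.53, -1.23, -0.96, -0.90 and -0.39 at 10 days and between -1.95 and 0.35 in vehicle. The same 48 h tumour was its lowest. The log2 difference of Col4a2 was -0.55 ± 0.45 at 48 h and -0.16 ± 0.45 at 10 days.

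Col18a1, the type XVIII chain whose end fragment is endostatin, lay at -1.50, -0.34, 0.13, 0.74 and 0.97 at 48 h and at -1.59, -0.78, -0.45, 0.24 and 0.76 at 10 days. In vehicle it ran from -0.94 to 1.53 with a median of -0.09. Its difference at 10 days, -0.43 ± 0.51, was under the SD of each group (0.83, 0.98 and 0.91). Col4a4, a type IV chain of specialised basement membranes, had the smallest basement membrane p at 48 h, at -0.32 ± 0.18 (limma, unadjusted p = 0.0922). The mean over the probes of Col4a4 turned that value to 0.14. Col15a1, the other multiplexin, was at -0.14 ± 0.35 at 48 h. Col4a5, detected on 2 of 6 vehicle, 4 of 5 48 h and 2 of 5 10 day arrays, was at 0.33 ± 0.32. The 6 basement membrane genes tested had a median of -0.11 at 48 h, -0.08 at 10 days and 0.04 between the times. Without ADH-503 48 h replicate 4, the low tumour, the 48 h median was 0.24 and the median between the times -0.21.

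Among the FACIT chains, Col9a2 gave the one unadjusted p under 0.05 at 10 days. This type IX chain, best known from cartilage, lay at -2.62, -2.32, -2.24, -1.92 and -1.89 at 10 days and between -2.24 and -1.23 in vehicle. All 10 day tumours were below the vehicle median of -1.66, and the ranges overlapped. The level at 10 days was 0.721 times (95% interval 0.527 to 0.987) that of vehicle (limma, unadjusted p = 0.0424, adjusted p = 0.99998). Col14a1, which binds type I fibrils, was at -0.54 ± 0.32 at 10 days and Col22a1, found at tissue junctions, at 0.17 ± 0.13. Col12a1, the type XII chain of dense connective tissue, was the most variable FACIT gene. It lay at -4.76, -4.15, -2.32, -2.05 and -1.62 at 48 h and at -4.49, -3.67, -2.54, -2.18 and -0.66 at 10 days, with vehicle between -3.74 and -0.33. Col20a1 and Col9a3 had the smallest FACIT p between the times, at 0.35 ± 0.20 and 0.25 ± 0.16. The 9 FACIT genes had a median of -0.18 at 48 h, with 7 below 0, and -0.10 at 10 days, with 5 below 0, where normexp background correction turned the median to 0.0049. The other FACIT genes were Col19a1, at -0.37 ± 0.36 at 10 days, Col9a1, at -0.10 ± 0.32, and Col16a1, at 0.05 ± 0.12.

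Of the type VI chains, Col6a1 and Col6a2 ranged widely and Col6a3 narrowly. Col6a1 was at -1.57, 0.26, 0.41, 1.08 and 1.29 at 48 h and at -2.15, -0.78, -0.18, 0.62 and 1.31 at 10 days, and ran from -1.17 to 1.91 in vehicle. Col6a2 was at -2.50, -1.14, -0.43, 0.28 and 0.72 at 48 h and at -4.25, -1.24, -1.14, -0.25 and 0.31 at 10 days, and ran from -1.26 to 1.23 in vehicle. In both chains the lowest array was the same 10 day tumour and the highest the same vehicle tumour. The Col6a2 level at 10 days was 0.494 times (95% interval 0.16 to 1.52) that of vehicle, and 0.822 times without ADH-503 10 days replicate 5, that lowest array. Col6a3, the longest chain of the common type VI molecule, stayed within -3.34 to -2.62 on the 16 arrays, at -0.21 ± 0.12 at 10 days (unadjusted p = 0.103). A second Col6a3 probe, detected on 16 arrays, had an SD of 0.39 over the arrays and correlated with the chosen one at r = 0.225. A further one, detected on 3 arrays, had an SD of 1.23. The width of the Col6a3 range thus differed between its probes. Col6a4 and Col6a5 were dim, with Col6a5 detected on 1 of 6 vehicle, 1 of 5 48 h and 4 of 5 10 day arrays and at 0.65 ± 0.36 at 10 days.

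Col8a1, a short-chain collagen of vessel walls, had the largest 48 h difference of any collagen. It lay at -8.03, -6.17, -3.78, -3.57 and -2.89 at 48 h, at -4.37, -3.73, -3.56, -3.54 and -2.03 at 10 days and between -5.01 and -1.23 in vehicle. It was well above background on 3 of 5 arrays at 48 h, 5 of 5 at 10 days and 6 of 6 in vehicle, and the groups overlapped. The log2 difference at 48 h was -1.68 ± 0.90 (unadjusted p = 0.0807), and -0.79 with normexp background correction, which raises dim signals, and -0.89 without ADH-503 48 h replicate 1, the lowest array. Between the times it was 1.45 ± 0.94, with 0.52 under normexp, 0.66 without that array and -0.38 within slide 2, which holds 1 array of the 48 h group. Col28a1, a collagen with von Willebrand factor domains, had the smallest p of this class at 48 h, at -0.27 ± 0.13 (unadjusted p = 0.0625). Col23a1, a transmembrane collagen, gave the one unadjusted p under 0.05 between the times, at 0.42 ± 0.17 (limma, unadjusted p = 0.0227, adjusted p = 0.99993). It lay at -1.69, -1.30, -1.30, -1.22 and -1.19 at 48 h and at -1.36, -1.03, -0.82, -0.73 and -0.66 at 10 days, and 1 tumour of the later time, at -1.36, lay within the range of the earlier one. The other transmembrane chains Col13a1 and Col25a1 were at 0.30 ± 0.20 and 0.25 ± 0.18 between the times. Col8a2, the partner of Col8a1, was at -0.37 ± 0.40 at 48 h and -0.41 ± 0.40 at 10 days. The hemidesmosome collagen Col17a1, Col7a1 and Col26a1 lay between -0.12 and 0.11 at both times. The 14 genes tested in this class had medians of -0.08, -0.09 and 0.14.

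Over all 39 collagen genes, the log2 difference was below 0 in 28 and above 0 in 11 at 48 h, with a median of -0.13. Of all genes tested, 53.2% were below 0 and 46.8% above 0 at 48 h and the median was -0.01. At 10 days 23 were below and 16 above 0, with a median of -0.07, against 52.1% below 0, 47.9% above 0 and -0.01 over all genes. Both counts use the same 6 vehicle arrays. Between the times 23 were above 0 and 16 below, with a median of 0.15, against 51.1% above 0, 48.9% below 0 and 0.0046 over all genes. This count shares the 48 h and the 10 day arrays with the other 2 counts. It was 32 above and 7 below 0 within slide 1 (median 0.24), and 19 above and 20 below within slide 2 (median -0.09). Without ADH-503 48 h replicate 4 it was 20 above and 19 below (median 0.0098). The members are not independent of each other, since many vary together. Without vehicle replicate 2 the 10 day count turned to 24 above 0 and 15 below, and without ADH-503 10 days replicate 5 to 25 and 14. The 10 day medians also turned above 0: fibrillar to 0.20 and FACIT to 0.12 without ADH-503 10 days replicate 5, and basement membrane to 0.06 and the others to 0.10 without vehicle replicate 2. Within slide 1, which holds 1 vehicle array, 23 were above and 16 below 0 at 48 h. On slide 2, which holds 1 array of the 48 h group, 7 were above and 32 below at 48 h, as in the model with slide as a block. At 10 days 27 were above and 12 below within slide 1, and 8 above and 31 below within slide 2. The model with slide as a block gave 17 above and 22 below at 10 days.

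**Figure D2:**
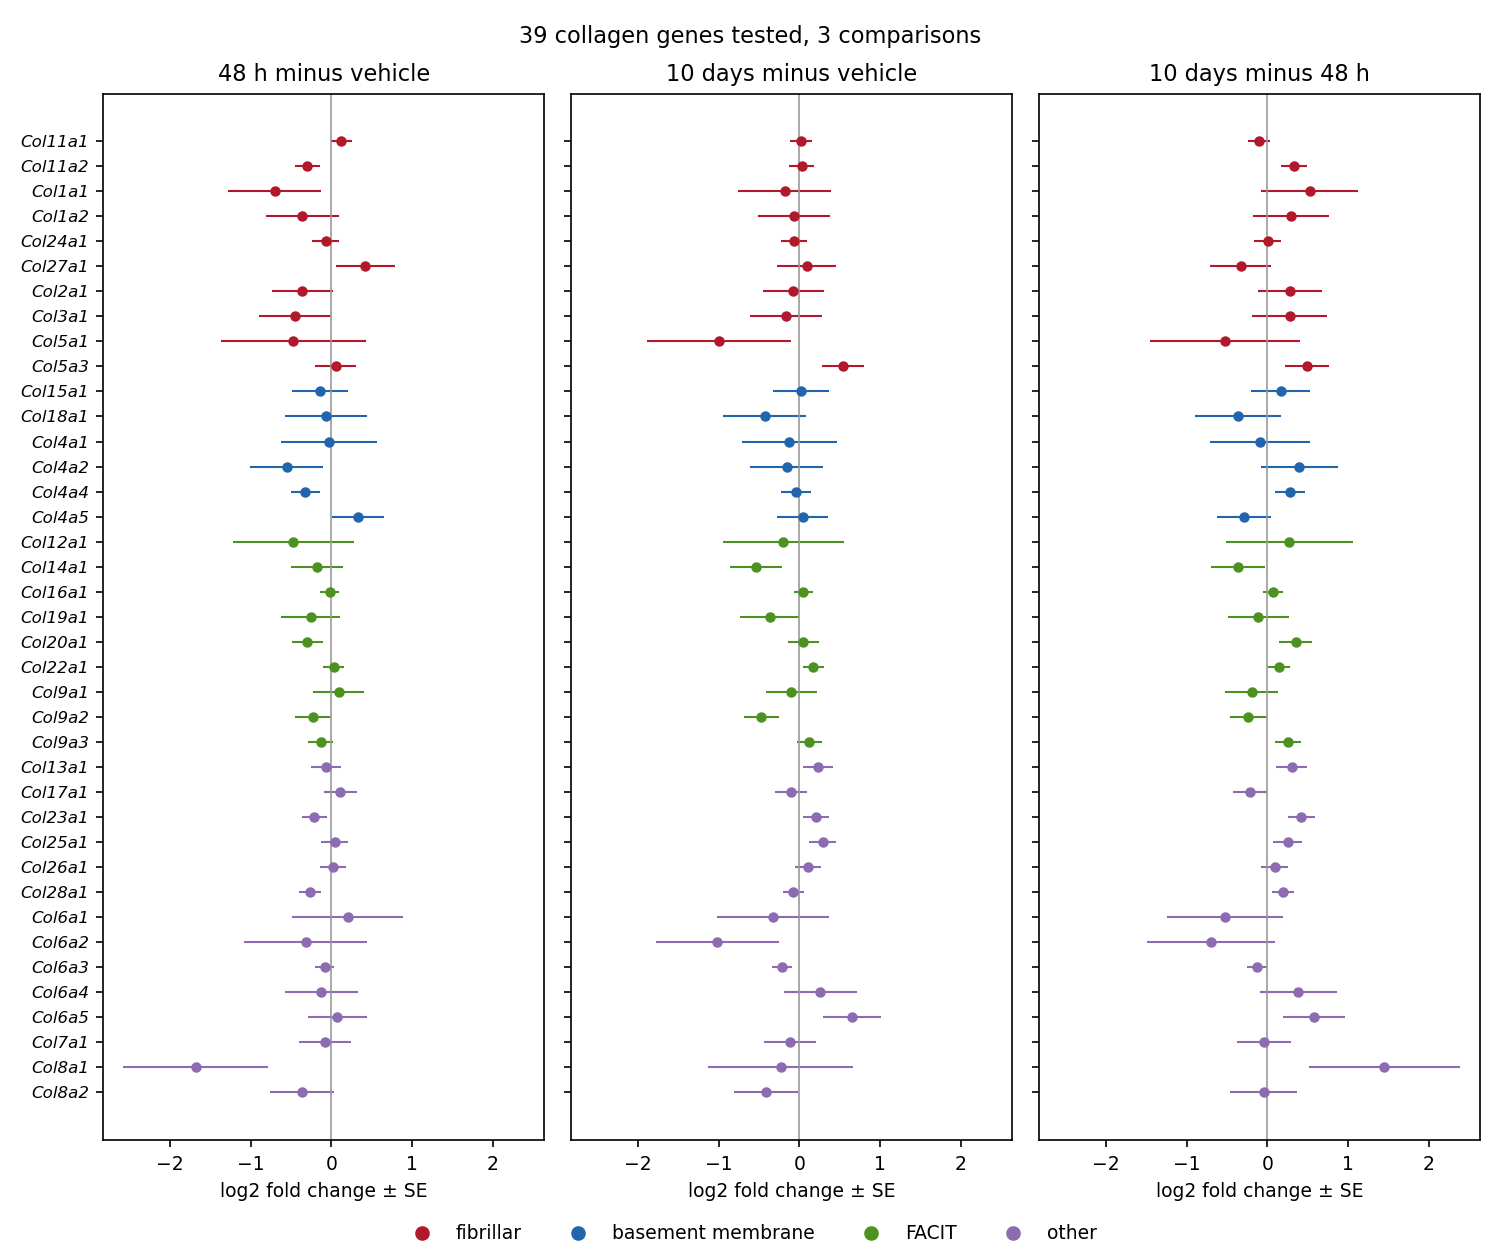
Log2 fold change with its SE (horizontal axis) of the 39 tested collagen genes, coloured by class, in each of the 3 comparisons. At 48 h 28 of 39 points lie left of 0 and Col8a1 lies farthest left, at -1.68, and no gene passed the adjusted test.

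The median spread between tumours was larger over the collagens than over all genes. The SD over the 16 arrays had a median of 0.54 over the 39 tested collagen genes and 0.32 over all genes tested. Of the 39, 7 exceeded 0.89, the 90th percentile of all genes. Among collagen genes detected on every array, Col6a2 had the largest SD, 1.33, with a 44.7-fold span from the lowest to the highest array. Col12a1 followed at 1.25 and a 21.5-fold span, and Col6a1 at 1.15 and 16.7-fold. The smallest were Col16a1 at 0.16, Col6a3 at 0.20 and Col11a1 at 0.20, with spans of 1.55, 1.64 and 1.58-fold.

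The chain pairs of types I, IV and VI that were listed, and type III with type I, varied together over the 16 arrays. Of 12 gene pairs listed, 11 were measured, and the pair of Col5a1 with Col5a2 was not, since Col5a2 did not pass the filter. Pearson's r was 0.932 for Col1a1 and Col1a2 (permutation p = 1e-05, the smallest that 100000 resamples can give, adjusted 3.67e-05 over the 11 pairs). Spearman's rho was 0.859 (adjusted permutation p = 0.00022). Here and below, a permutation p printed beside both coefficients is that of r unless rho is named. Leaving out the 2 arrays farthest from the Col1a1 median gave r = 0.87, and the slides gave 0.948 and 0.912. After each group's mean was subtracted, r was 0.933. Col1a1 and Col3a1 gave 0.913 (rho 0.832, adjusted permutation p = 3.67e-05), with 0.911 and 0.934 within slides and 0.899 without the 2 farthest arrays. Col6a1 and Col6a2 gave 0.922 (rho 0.95, adjusted permutation p = 3.67e-05), with 0.947 and 0.91 within slides and 0.906 without 2 arrays. Col4a1 and Col4a2 gave 0.838 (rho 0.847, adjusted permutation p = 0.00011), with 0.907 and 0.78 within slides and 0.749 without 2 arrays. Their annotated starts lie head to head on chromosome 8 (GRCm38.p6), 21 bases apart, so that the first bases of both genes overlap.

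Other pairs were looser. Col1a1 with Col4a1 gave 0.584 (rho 0.5, adjusted permutation p 0.0286 for r and 0.0804 for rho). Without the 2 arrays farthest from the Col1a1 median r was 0.28, without the 2 farthest from the Col4a1 median 0.437, and without any 1 array at least 0.436. Col1a1 with Col6a3 gave 0.297 (rho 0.226, adjusted permutation p = 0.293), and without 2 arrays -0.142 or 0.391, depending on whether the Col1a1 or the Col6a3 median picks them. Col1a1 followed Pdgfrb, the receptor that marks fibroblasts and pericytes, at r = 0.741 (rho 0.685, adjusted permutation p = 0.00257). The slides gave 0.845 and 0.645 for that pair, the second not past the threshold (exact permutation, adjusted p = 0.158), and r was 0.685 without 2 arrays. Pdgfrb was lowest, at -8.04 and -7.69, in the 48 h tumours whose Col1a1 levels were -0.19 and -0.73, the lowest of that group. Both of those arrays are on slide 1, and on neither was Pdgfrb well above background, against 3 detected arrays among the 5 of that group. Col1a1 with Krt19, a keratin of ductal and tumour epithelium, gave 0.519 (rho 0.453, adjusted permutation p = 0.0538), with 0.505 and 0.561 within slides and 0.157 without 2 arrays. With the acinar gene Cpa1 it gave 0.0767 (rho -0.0176, adjusted permutation p = 0.78).

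Col4a1 correlated positively with the epithelial keratin. With Krt19 it gave r = 0.773 (rho 0.703, adjusted permutation p = 0.000946), 0.926 and 0.637 within slides and 0.636 without 2 arrays. The slide 2 value did not pass the threshold (exact permutation, adjusted p = 0.159). With Pecam1, which marks endothelium, r was -0.341 (rho -0.356, adjusted permutation p = 0.241). The difference between these correlations was not tested. Pecam1 is a single marker and does not stand for the 7 endothelial genes tested. The correlation of Col4a1 with the mean of those genes was not tested. That mean was lowest, at -3.94, in ADH-503 48 h replicate 4, where Col4a1 was also lowest. It was -2.38 in vehicle replicate 2, where Col4a1 was highest, at 1.44. Vehicle replicate 5 went the other way, with a mean of -3.01 and Col4a1 at -0.76, against -3.43 and 0.32 in ADH-503 48 h replicate 5.

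**Figure D3:**
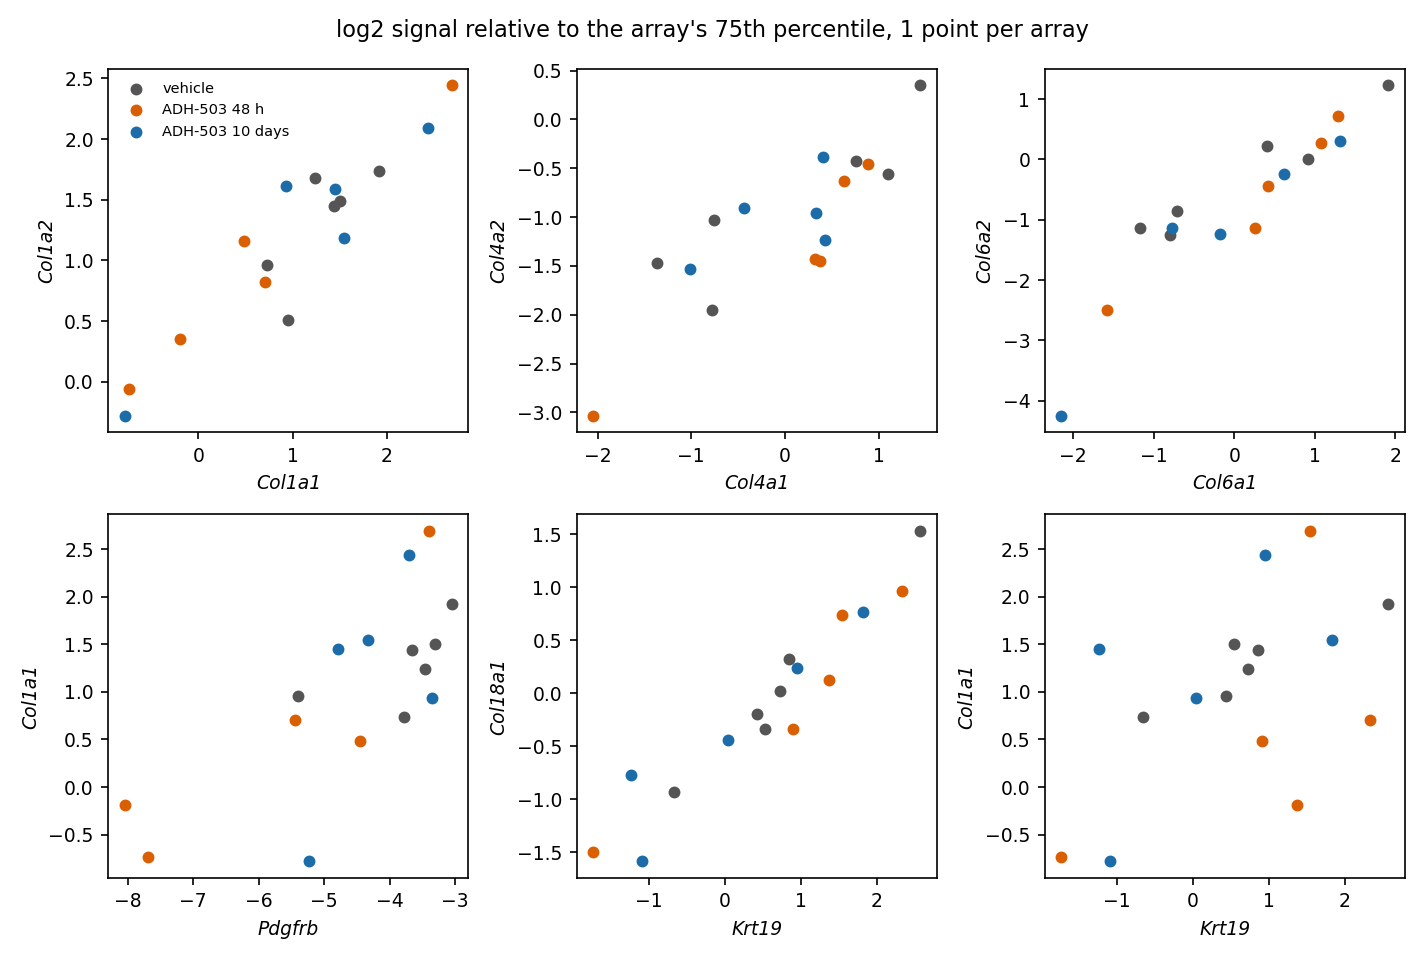
Levels of 6 gene pairs, 1 point per array coloured by group, both axes as log2 signal relative to the array's 75th percentile. Chains of 1 molecule lie along a line (r = 0.932 for Col1a1 and Col1a2, 0.922 for Col6a1 and Col6a2), as do Col18a1 and Krt19 (r = 0.955), while Col1a1 and Krt19 scatter (r = 0.519).

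After these pairs were seen, each tested member was correlated with Col1a1 and with Krt19, 77 relations in all. With Col1a1, 10 members passed an adjusted permutation p of 0.05, and with Krt19 9 did, all of them positive. An r of 0.7 or more with Col1a1 was reached by 5 of 38 members (13.2%), against 0.247% of all genes tested. With Krt19 it was reached by 5 of 39 (12.8%), against 2.23% of all genes. The 5 with Col1a1 were Col1a2 and Col3a1, above, Col5a1 at 0.863, Col2a1 at 0.81 and Col6a2 at 0.778, so 4 of 9 other fibrillar genes and 1 of 29 genes of the remaining classes. That split rests on the chosen probes. A further probe of Col12a1, detected on 13 arrays, gave 0.822 with Col1a1, against 0.688 for the chosen one. For Col15a1 a further probe, detected on 16 arrays, gave 0.796 against 0.490. A further Col1a2 probe, detected on 16 arrays, gave 0.273. The 5 with Krt19 were Col18a1, Col4a1 and Col4a2, 3 of 6 basement membrane genes, and Col6a1 and Col6a2. No fibrillar gene of 10 and no FACIT gene of 9 reached 0.7 with Krt19.

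The closest relation was that of Col18a1 with Krt19, at r = 0.955 (rho 0.935, permutation p = 1e-05, adjusted 0.000192 over the 77). It was 0.984 and 0.929 within slides, 0.949 without the 2 arrays farthest from the median and at least 0.945 without any 1 array. Adjusted over the 77 relations, the slide 2 value did not pass (exact permutation, adjusted p = 0.0626). Col6a1 with Krt19 gave 0.908 (rho 0.918, adjusted permutation p = 0.000192), 0.948 and 0.887 within slides, the second again not past the threshold (exact permutation, adjusted p = 0.0626), and 0.873 without 2 arrays. With Col1a1 these 2 genes gave 0.663 and 0.662, and the differences between the coefficients were not tested. Krt19 lay at -1.73, 0.91, 1.37, 1.55 and 2.33 at 48 h and at -1.23, -1.09, 0.05, 0.95 and 1.83 at 10 days, and ran from -0.66 to 2.57 in vehicle. Krt19 and Col18a1 were both highest in vehicle replicate 2, and the lowest Krt19 array, ADH-503 48 h replicate 4, was the second lowest for Col18a1. Weaker relations depended on few arrays: of those past the threshold with Krt19, Col4a1, Col4a2, Col7a1, Col27a1, Col12a1 and Col5a1 lost it without 2 arrays (r from 0.43 to 0.636). With Col1a1, Col6a2, Col12a1, Col7a1, Col18a1, Col6a1 and Col4a2 lost it (r from 0.387 to 0.694). Col7a1, the anchoring fibril chain under epithelium, gave 0.698 with Krt19 and 0.682 with Col1a1.

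**Figure D4:**
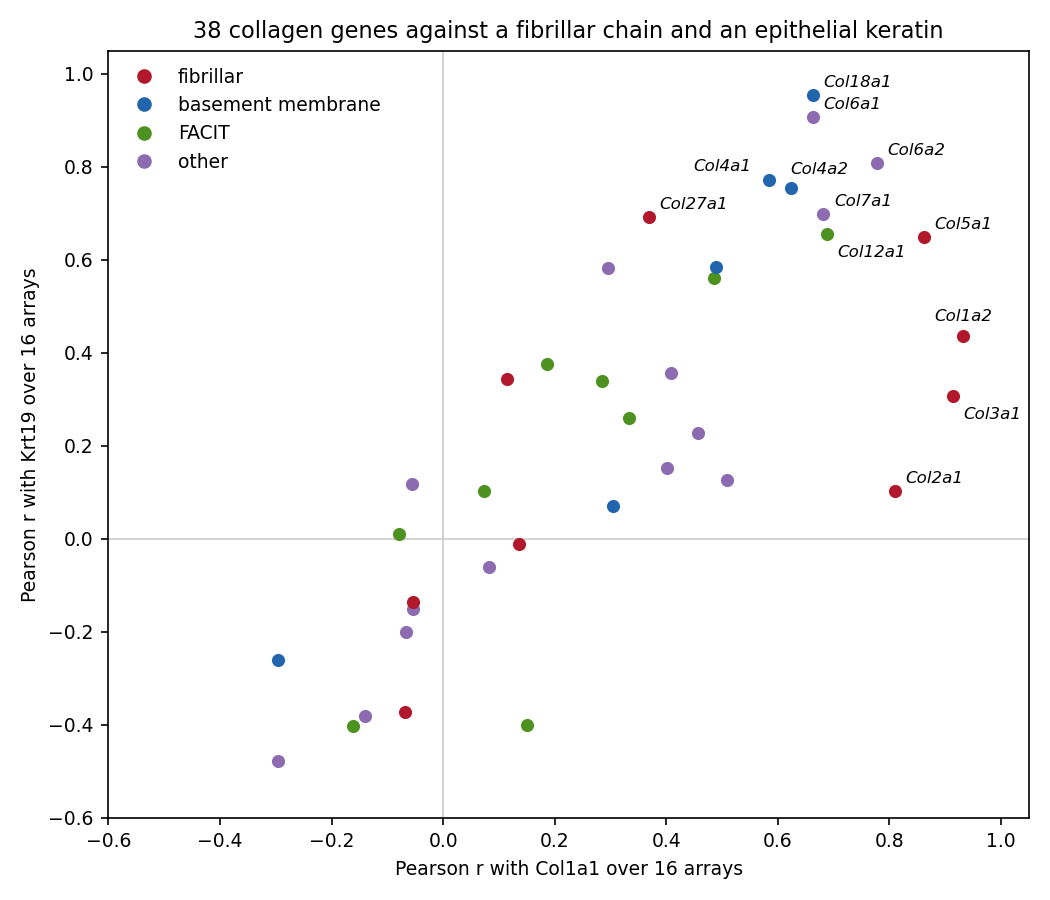
Pearson's r over 16 arrays of 38 collagen genes with Col1a1 (horizontal axis) and with Krt19 (vertical axis), coloured by class, with names where either exceeds 0.6. Fibrillar chains Col1a2, Col3a1, Col5a1 and Col2a1 lie farthest right, at 0.810 to 0.932, and Col18a1 and Col6a1 lie highest, at 0.955 and 0.908.

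Promoters of members at both ends of this pattern are shown for reference, chosen after the correlations were seen: Col1a2 and Col3a1, which followed Col1a1 most closely, and Col6a1 and Col18a1, the latter with both of its starts, which followed Krt19. Each is the 200 bases before the annotated start, written 5′ to 3′ on the gene's strand, from RefSeq promoters of GRCm38.p6. Capitals mark the CCAAT box, the GC box with the letters GGGCGG and the TATA box with the letters TATAAA, searched on either strand, and no match overlaps another here.
Col1a2: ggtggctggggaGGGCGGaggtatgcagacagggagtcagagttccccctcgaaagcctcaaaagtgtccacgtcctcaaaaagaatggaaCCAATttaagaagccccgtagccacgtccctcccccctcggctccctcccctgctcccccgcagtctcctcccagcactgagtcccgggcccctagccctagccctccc
Col3a1: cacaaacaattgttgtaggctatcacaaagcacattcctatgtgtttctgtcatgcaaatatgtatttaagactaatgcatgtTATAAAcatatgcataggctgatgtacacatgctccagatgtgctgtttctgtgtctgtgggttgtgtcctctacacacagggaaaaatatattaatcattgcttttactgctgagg
Col6a1: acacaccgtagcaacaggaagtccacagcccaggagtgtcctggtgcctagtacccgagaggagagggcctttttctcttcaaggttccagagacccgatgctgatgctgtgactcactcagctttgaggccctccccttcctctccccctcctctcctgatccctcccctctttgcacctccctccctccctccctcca
Col18a1 upstream start: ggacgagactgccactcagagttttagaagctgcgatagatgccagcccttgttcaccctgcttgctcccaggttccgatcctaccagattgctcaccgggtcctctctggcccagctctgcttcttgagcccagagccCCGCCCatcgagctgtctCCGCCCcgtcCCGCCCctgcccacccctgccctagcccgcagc
Col18a1 downstream start: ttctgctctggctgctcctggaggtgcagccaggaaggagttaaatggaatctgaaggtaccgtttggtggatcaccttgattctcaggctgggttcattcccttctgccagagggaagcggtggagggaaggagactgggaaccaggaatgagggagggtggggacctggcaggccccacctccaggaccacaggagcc
They lie at chr6:4505418-4505617 and chr1:45311338-45311537 on the plus strand, and at chr10:76726045-76726244, chr10:77166531-77166730 and chr10:77113706-77113905 on the minus strand. The Col1a2 stretch holds 1 CCAAT and 1 GGGCGG, that of Col3a1 holds 1 TATAAA, and the upstream start of Col18a1 holds 3 matches to GGGCGG. Col6a1 and the downstream start of Col18a1 hold none of these letters. Of 38 collagen promoters of 35 genes in the table, 22 hold GGGCGG (57.9%), 10 hold CCAAT (26.3%) and 4 hold TATAAA (10.5%). Of all 32851 promoters in windows of the same length, 31% hold GGGCGG, 29.3% hold CCAAT and 9.96% hold TATAAA. A match is a description of the sequence, and the data hold no measure of binding.

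Genes that make, fasten and degrade collagen gave no gene past the adjusted test either. Over all genes tested, 46.8% had a log2 difference above 0 at 48 h, 47.9% at 10 days and 51.1% between the times. The sign counts of the gene lists below are to be read beside these shares. Among 19 genes of chain modification and folding, 8 had a log2 difference above 0 at 48 h and 5 at 10 days. Tmem38b, an endoplasmic reticulum channel needed for collagen folding, was at 0.58 ± 0.23 at 48 h (limma, unadjusted p = 0.0263) and Plod1, a lysyl hydroxylase, at 0.30 ± 0.14. P3h2 and P4ha3, prolyl hydroxylases, were at 0.53 ± 0.29 and -0.40 ± 0.24 at 10 days. Of 12 genes of secretion and propeptide removal, 7 were above 0 at 48 h and 9 at 10 days, and the procollagen protease Adamts2 was at 0.38 ± 0.19 between the times. Of 6 cross-linking genes, 4 were below 0 at 48 h and 5 at 10 days. The transglutaminase Tgm2 was at -0.32 ± 0.15 at 10 days and the lysyl oxidase Loxl1 at -1.32 ± 0.82.

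Of 9 fibril-associated proteoglycans and glycoproteins tested, 6 were below 0 at each time. Fmod, which binds type I fibrils, was at -0.37 ± 0.27 at 48 h and Comp, a glycoprotein of cartilage and tendon, at -1.24 ± 0.77 between the times. Ogn, named for its unadjusted p after its values were seen, had a mean of -7.17 at 48 h and -4.18 in vehicle and was well above background on 1 of 5 and 5 of 6 arrays. Of 10 collagen receptors, 7 were below 0 at 48 h, with Itga1 at -0.32 ± 0.19, and 6 above 0 at 10 days, with the platelet receptor Gp6 at 0.44 ± 0.31. Of 9 genes of collagen breakdown, 7 were below 0 at each time. The inhibitor Timp1 was at -0.40 ± 0.18 at 10 days (unadjusted p = 0.0434) and the protease Ctsk at -0.63 ± 0.67 at 48 h. Of 12 basement membrane partners, 8 were above 0 at 48 h and 5 at 10 days. Pxdn, the peroxidase that cross-links type IV collagen, was at -1.29 ± 0.57 at 10 days (unadjusted p = 0.0396), and Nid2, which links laminin to type IV, at 0.32 ± 0.18.

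Markers of other cell types also had differences between the groups, none past the adjusted test, and their part in the collagen values was not tested. Of 12 acinar genes, 12 had a log2 difference above 0 at 48 h (median 1.18), against 46.8% of all genes tested. For 8 of them the unadjusted p (limma) was under 0.05, against 0.874% of all genes in that direction. Between the times all 12 were below 0, each at an unadjusted p under 0.05, against 48.9% and 1.17% of all genes. The mean over the acinar list ran from 2.19 to 3.02 at 48 h, 0.19 to 2.96 at 10 days and 0.50 to 2.46 in vehicle. Of 9 ductal and tumour epithelial genes, 6 were above 0 at 48 h and none at 10 days (median -0.52), with list means of -0.32 to 1.67 in vehicle, -1.45 to 1.55 at 48 h and -1.22 to 0.73 at 10 days. All 7 endothelial genes were below 0 at both times (medians -0.66 and -0.28). Of 11 fibroblast genes, 7 were below 0 at 48 h (median -0.05) and 5 at 10 days (0.03). Fibroblast list means ran from -1.01 to -0.63 in vehicle, -1.24 to -0.26 at 48 h and -1.29 to -0.50 at 10 days. Of 6 pericyte genes, 4 were below 0 at each time. All 6 red blood cell genes were below 0 at both times (medians -0.75 and -1.32), and all 8 macrophage genes above 0 (0.14 and 0.08). All 8 cartilage and bone genes passed the filter, 4 of them above 0 at each time, in tumours where Col2a1, Col9a1, Col9a2, Col9a3, Col11a1 and Col11a2 were detected on all arrays. In the mesothelial and adipocyte lists 2 of 5 and 1 of 5 genes tested were above 0 at 48 h. The markers below the filter in these lists were Dpt, Tek and Lrrn4.

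The probes of a gene did not always give the same answer. At least 2 probes past the filter were found for 19 members, and the sign of the log2 difference differed between probes in 9 of them at 48 h, 11 at 10 days and 9 between the times. Of 23 such further probes, 3 correlated with the chosen probe at 0.7 or more, and the median r was 0.27. At 48 h a further Col6a3 probe, detected on 16 arrays, was at -0.49 ± 0.21 (limma, unadjusted p = 0.032). A further Col6a2 probe, detected on 6 arrays, was at -1.22 ± 0.45 (limma, unadjusted p = 0.016), and another, detected on 10, at 0.21 ± 0.61. The chosen probes of both genes were not under 0.05 at 48 h. For Col1a1, 2 further probes detected on all arrays correlated with the chosen one at 0.964 and 0.967 and gave -1.02 and -0.91 at 48 h. The chosen Col1a1 probe lies at 94814188 to 94814247 on chromosome 11 of mm9, by the array's annotation.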

How the data were processed

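Tumour RNA of 16 samples was amplified, labelled with Cy5 and hybridised to 1-colour Agilent mouse arrays, per the labels' protocols. The authors deposited scanner files, whose red intensity values Agilent Feature Extraction 11.5.1.1 made, per the submitters' processing notes, and a table of quantile-normalized log2 values, deposited by the authors, of 56605 probes. Here the main values are log2 processed signal minus each array's 75th percentile, over non-control spots, with outlier flags left out (62 values among the genes tested). No spot was saturated. Symbols came from the arrays' accessions through RefSeq (GRCm38.p6): 32994 probes matched by accession, 10733 by symbol or synonym, and 12878 kept the file's name. The probe with the highest mean stood for a gene and was tested if well above background on at least 5 arrays. limma 3.58.1 (R 4.3.3, robust eBayes, 1 fit of 3 groups, 2-sided, adjusted p threshold 0.05) gave differences and intervals. It was tested on simulated data first. The number of arrays limits the precision. Correlations used 100000 permutations (scipy 1.17.1), or all of them within slides. Named genes are 8 fixed members, the 3 smallest p per class and comparison, the 2 smallest per pathway list among genes detected on at least 3 arrays of each group, and the extremes of spread. The members, lists and tests were chosen with earlier results of these data known. Alternatives covered scaling, background, filters, probes, slide and left-out arrays.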

Additional observations from a re-analysis of the deposited data

Results flagged for a closer look

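Col4a1 in ADH-503 48 h replicate 4 was at -2.05, far from the other 4 arrays of its group, which lay between 0.32 and 0.88. The gap was 0.808 of the group's range, above the critical value of 0.71 for 5 samples. It was the single flag among 36 groups tested, and chance flags about 1 in 20. The same array held the lowest Col4a2 level of the series, -3.03, and the lowest Krt19 level, -1.73.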

How the results depend on the processing

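No collagen gene was called in any comparison under any setting. Without a filter on dim probes 1 gene was called at 48 h and 1 at 10 days, and 3 between the times when only those 2 groups were fitted. Fits without single arrays called between 0 and 1 genes in each comparison: 1 at 48 h and 1 between the times without vehicle replicate 1 or vehicle replicate 5, and 1 at 10 days without ADH-503 10 days replicate 4. Within slide 1 the FACIT median log2 difference was 0.20 at 48 h and 0.41 at 10 days and the median of the other chains 0.46 at 10 days. Within slide 2 the FACIT median was -0.51 at 10 days and the fibrillar median -0.33 between the times. Slide 1 holds 1 vehicle array and slide 2 1 array of the 48 h group. The fibrillar median at 48 h stayed below 0 under all 4 other scalings (-0.34 to -0.22) and without any single array (-0.51 without ADH-503 48 h replicate 3 to -0.12 without replicate 4), while at 10 days it was 0.20 without ADH-503 10 days replicate 5. Col1a1 at 48 h was -1.23 and -0.37 without those first 2 arrays. The correlation of Col1a1 with Col4a1 no longer passed within slide 1 (0.598), within slide 2 (0.589), without the 2 farthest arrays (0.280) or without the 2 arrays with a shared title number (0.572, added after the data were seen), that of Col1a1 with Pdgfrb within slide 2 (0.645) and that of Col4a1 with Krt19 within slide 2 (0.637). The causes were not tested. No paired analysis was possible because replicate numbers only name the arrays in accession order and pair no samples across groups. Dim probes such as Col8a1 limit what could be measured, and with 5 or 6 arrays a group the intervals of Col1a1 reach from 0.262 to 1.44 times vehicle.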
